A study of Mus musculus with 50 samples.

Results

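ATAC-seq was measured in 4 lines of mouse embryonic stem cells (ESCs), with 1 library per line, and these 4 samples of the 50 in the series were taken by their assay label. The deposited lists of open regions together held 3115328 regions on chromosomes 1 to 19, X and Y, and the 20000 strongest of each line were compared. WT ESCs (E14TG2a) carried both Polycomb methyltransferase genes. Ezh2 KO ESCs (label Ezh2KO) had lost Ezh2 through a Cas9 deletion. Ezh1/2 dKO ESCs (label Ezh1KO_Ezh2KO, below dKO) had lost Ezh1 and Ezh2. Ezh2 Y726D ESCs (label Ezh1KO_EZh2Y726D, below Y726D) carried a homozygous, catalytically inactive EZH2 on an Ezh1 KO background, so the dKO and Y726D lines shared the absence of Ezh1. The rest of the series held ChIP-seq and RNA-seq libraries, of which the SUZ12, H3K27me3 and H3K27ac peak lists and the RNA counts are used here as sites and classes. The H3K27ac sites came from the 3 mutant lines and from a further line without ATAC-seq, Ezh2 R685C (label Ezh1KOEzh2R685C), which carried another catalytic mutant of EZH2 and also lacked Ezh1. Each line was represented by 1 library, and therefore a difference between lines could not be set against a difference between replicates, no test was made, and line and library cannot be told apart. Confidence intervals cover counting error only and are 95% Wilson intervals for shares and intervals from the discordant sites for differences of shares.

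ATAC-seq uses the Tn5 transposase, which inserts sequencing adapters where DNA is not wrapped in nucleosomes, so that the inserted fragments pile up at active promoters, enhancers and insulator sites. Polycomb Repressive Complex 2 (PRC2) holds the subunits SUZ12 and EED with one of the methyltransferases EZH1 or EZH2, and methylates histone H3 at lysine 27. In ESCs its trimethyl mark, H3K27me3, lies over CpG-rich promoters of silent developmental genes, and acetylation of the same residue, H3K27ac, marks active promoters and enhancers.

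The strongest regions of all 4 lines were of a few kinds, and the sequences below were chosen to show them. The first is an exon of Ezh1 (minus strand gene) with 20 bases of intron on each side, read from mm9 on the plus strand at chr11:101069416-101069619, with the exon in capitals. It is shown because listed regions started and ended within a few bases of its edges. The second is the region ranked 4 in WT ESCs, chr12:3109872-3110115, whose 31-base stretches occurred a median of 37 times in mm9, and its capitals mark the 8-base run that occurs most often in it, ACTGAAAA (5 times).

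Ezh1 exon: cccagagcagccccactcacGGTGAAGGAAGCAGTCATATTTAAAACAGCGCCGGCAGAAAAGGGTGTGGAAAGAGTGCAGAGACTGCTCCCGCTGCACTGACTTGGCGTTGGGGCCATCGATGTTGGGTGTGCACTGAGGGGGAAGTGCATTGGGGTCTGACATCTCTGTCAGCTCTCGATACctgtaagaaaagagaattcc
WT rank 4: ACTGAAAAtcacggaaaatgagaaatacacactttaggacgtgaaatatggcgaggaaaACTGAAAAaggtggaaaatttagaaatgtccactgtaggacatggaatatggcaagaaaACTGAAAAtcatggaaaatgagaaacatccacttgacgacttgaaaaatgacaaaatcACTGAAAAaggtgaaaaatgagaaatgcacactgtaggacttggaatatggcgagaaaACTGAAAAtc

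Distal regions found on the lists of all 4 lines are shown by 60-base windows on the plus strand of mm9. In the first pair, at chr8:19784538-19784597 and chr3:115364102-115364161, the capitals mark a match to the core of the CTCF motif, the binding sequence of the insulator protein. In the next pair, at chr6:149041119-149041178 and chr16:78828165-78828224, they mark the octamer ATGCAAAT on either strand, which POU factors such as OCT4 bind. The windows are examples and not typical of these regions. Of the 1048 distal regions on all 4 lists, 0.477% held the CTCF match near their centre and 2.77% the octamer. Among regions on 1 list, promoters included, the shares were 1.17% and 1.76%. Only 300 bp about the centre of each merged interval were searched. Median widths were 1914.5 bp for the distal regions on all 4 lists and 463 bp for those on 1 list. The search therefore took in a smaller part of the former, and the shares are not a measure of depletion.

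CTCF window 1: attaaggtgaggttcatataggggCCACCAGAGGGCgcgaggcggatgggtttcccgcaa
CTCF window 2: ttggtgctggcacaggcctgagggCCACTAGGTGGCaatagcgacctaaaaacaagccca
octamer window 1: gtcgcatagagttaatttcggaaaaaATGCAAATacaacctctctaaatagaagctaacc
octamer window 2: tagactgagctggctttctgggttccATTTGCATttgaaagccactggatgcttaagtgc

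Promoters that were among the strongest in one line and not in another are represented by the 200 bases before the start of 4 genes, in the direction of the gene and with each CpG in capitals. Bpnt1 (chr1:187155828-187156027, plus strand) and Olig1 (chr16:91269814-91270013, plus strand) lost a strong region in the mutant lines. Xpa (chr4:46209184-46209383, minus strand) gained one in dKO ESCs and Mrps16 (chr14:21212778-21212977, minus strand) in Y726D ESCs. These stretches held 17, 17, 10 and 25 CpG dinucleotides.

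Bpnt1 upstream: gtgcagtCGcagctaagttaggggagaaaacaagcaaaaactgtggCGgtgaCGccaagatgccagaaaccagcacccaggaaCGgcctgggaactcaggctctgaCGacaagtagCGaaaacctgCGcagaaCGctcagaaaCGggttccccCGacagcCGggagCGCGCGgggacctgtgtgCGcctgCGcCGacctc
Olig1 upstream: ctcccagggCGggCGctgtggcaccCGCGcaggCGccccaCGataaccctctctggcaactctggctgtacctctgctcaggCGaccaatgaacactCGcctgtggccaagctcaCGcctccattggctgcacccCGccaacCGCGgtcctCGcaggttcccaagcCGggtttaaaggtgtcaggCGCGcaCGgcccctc
Xpa upstream: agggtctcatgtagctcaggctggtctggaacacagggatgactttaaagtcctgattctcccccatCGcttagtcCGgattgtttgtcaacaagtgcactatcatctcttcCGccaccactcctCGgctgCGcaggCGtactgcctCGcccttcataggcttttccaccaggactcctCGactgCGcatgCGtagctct
Mrps16 upstream: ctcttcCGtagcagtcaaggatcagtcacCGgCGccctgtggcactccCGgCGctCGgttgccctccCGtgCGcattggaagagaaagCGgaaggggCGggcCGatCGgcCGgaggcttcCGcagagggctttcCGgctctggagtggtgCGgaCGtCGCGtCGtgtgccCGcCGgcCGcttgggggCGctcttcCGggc

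The lists of the 4 lines were alike in size and were dominated by weak regions. They held 769945 regions in WT, 795136 in Ezh2 KO, 798238 in dKO and 752009 in Y726D ESCs, and covered 23.3%, 23.7%, 24.3% and 22.7% of the genome. The strength of a region was its -log10 p from MACS2, the peak caller, and its median was 1.35 in each line. Regions with a p of at most 1e-10 numbered 87 in WT, 111 in Ezh2 KO, 91 in dKO and 92 in Y726D ESCs. The 20000 strongest regions, 2.51% to 2.66% of each list, reached down to a -log10 p of 2.16 in WT, 2.37 in Ezh2 KO, 2.101 in dKO and 2.18 in Y726D ESCs, and the next region of each list had the same value to this precision. At the WT minimum, the Ezh2 KO list would have held 32398 regions, the dKO list 16084 and the Y726D list 21143. The lists give no read counts, so the depth of the libraries is unknown, and lists of equal length were compared for that reason.

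The identity of the lines as ESCs was checked by RNA, since the marker lists hold too few promoters to be read in the ATAC-seq lists, where 14.996% to 19.4% of all promoters carried one of the 20000 strongest regions. Transcripts of 6 ESC markers, among them Pou5f1 and Nanog, had a median of 1314 normalised counts (scaled by the authors with DESeq2) in WT, 1249 in Ezh2 KO, 1126 in dKO and 1213 in Y726D ESCs. Of their promoters, Zfp42 carried a strong region in WT and in Ezh2 KO ESCs and none did in the other 2 lines, counts near what the share of all promoters gives. Pou5f1, which encodes OCT4, had a promoter region ranked 238395 in WT, 29164 in Ezh2 KO, 52729 in dKO and 87018 in Y726D ESCs. None of 6 fibroblast marker promoters carried a strong region in any line, and the median RNA of this list was 0 normalised counts in WT and at most 4.22 in a mutant, although Thy1, bound by SUZ12 in WT, had 10.7 and 4.81 counts in WT, 88.2 and 101 in dKO and 84.7 and 76.1 in Y726D ESCs. Of 4 primitive endoderm markers, Foxa2 alone had a strong region, in dKO ESCs (rank 4871), with RNA of at most 0.963 in every library.

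The deleted genes were visible in the lists. Over the 65068 bases of Ezh2 (chr6:47480273-47545340, minus strand) 22 regions were listed in WT and 19 in Y726D ESCs, against 6 in Ezh2 KO and 8 in dKO ESCs. Regions covered 28.0% of the gene in WT, 22.9% in Y726D, 9.60% in Ezh2 KO and 7.68% in dKO ESCs. The longest stretch with no region was 6297 bp in WT and 6515 bp in Y726D ESCs. It was 47234 bp in Ezh2 KO ESCs (chr6:47480134-47527367) and 47314 bp in dKO ESCs (chr6:47480057-47527370), which in both takes in the 3′ end of the gene. Ezh2 RNA was 598 and 546 normalised counts in the 2 WT libraries, 1.05 and 0.968 in Ezh2 KO, 0.824 and 1.78 in dKO, and 422 and 613 in Y726D ESCs, so both measures separated the lines as their labels do. The 5′ end of Ezh2 kept a region in every line, ranked 15070 in WT, 20933 in Ezh2 KO, 9173 in dKO and 3568 in Y726D ESCs.

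**Figure D1:**
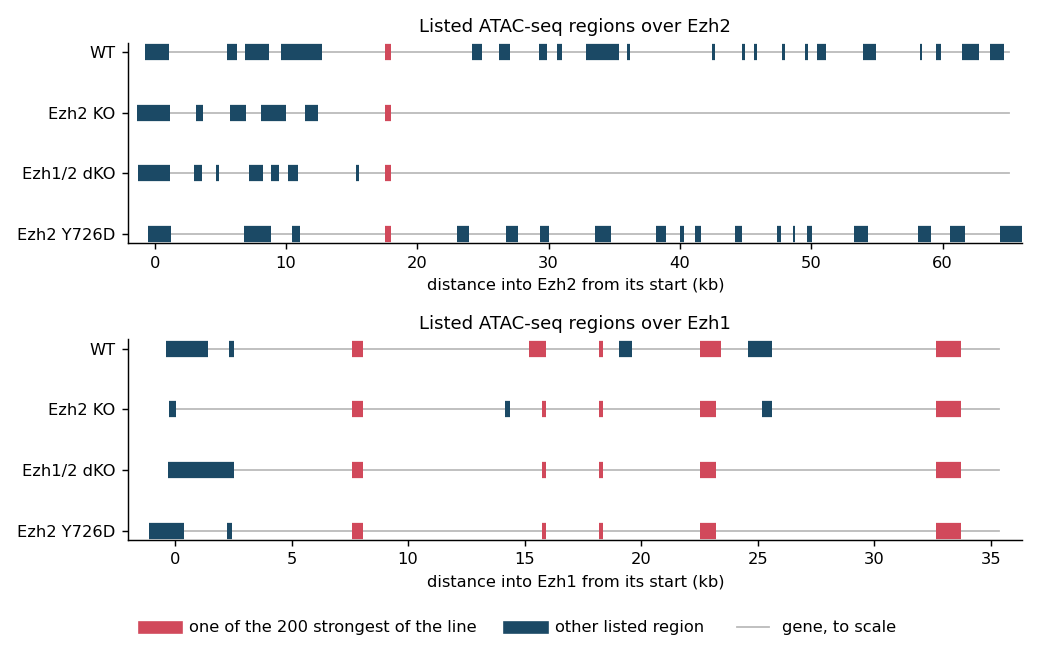
Listed ATAC-seq regions over Ezh2 (top) and Ezh1 (bottom) in each line, with distance from the start of the gene in kb on the x axis, drawn to scale. Red blocks are among the 200 strongest regions of the line and blue blocks are the other listed regions. In Ezh2 KO and dKO ESCs no region lies beyond the red block inside Ezh2, and over Ezh1 the 5 red blocks are present in all 4 lines.

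At Ezh1 the lists did not separate the lines in the same way. Over its 35349 bases (chr11:101052429-101087777, minus strand) 9 regions were listed in WT, 8 in Ezh2 KO, 6 in dKO and 7 in Y726D ESCs, and in each line 5 of these were among the 200 strongest of the genome. Ezh1 RNA was 227 and 377 normalised counts in WT and 372 and 378 in Ezh2 KO, against 14.01 and 20.4 in dKO and 24.1 and 15.7 in Y726D ESCs. The region ranked 1 in all 4 lines, chr11:101079696-101080190 in WT, lay on an Ezh1 coding exon (101079709 to 101080034). Its -log10 p was 1395 in WT, 2095 in Ezh2 KO, 1200 in dKO and 2190 in Y726D ESCs, and each of its 31-base stretches occurs once in mm9. In Ezh2 KO and dKO ESCs, the regions on the exon printed above covered 101069437 to 101069597 and 101069435 to 101069597, while the exon itself spans 101069436 to 101069599. On the neighbouring exon (101071861 to 101072037) the dKO region covered 101071861 to 101072036, while the WT region ran 538 bp past the exon. The WT regions ranked 75 and 130 started 455 and 220 bp before the first exon that they overlapped. Without the 200 strongest regions, the longest stretch with no region that touched the gene spanned 16549 bp (WT) or 14107 bp (Ezh2 KO) where Ezh1 was present. It spanned 36607 bp in dKO and 36932 bp in Y726D ESCs, reaching past the 3′ end of the gene. The strong regions on Ezh1 exons, of which only some followed exon edges closely, were present whether or not the line lacked Ezh1. Their source was not tested. A region of the same rank class lay on an Ezh2 exon (chr6:47527365-47527782 in WT), at rank 45 in WT, 31 in Ezh2 KO, 40 in dKO and 29 in Y726D ESCs. It lay within 500 bp of an annotated start, and through it Ezh2 counted below among the promoters with a strong region in all 4 lines.

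The very strongest regions were shared by the 4 lines, and the sharing fell quickly with rank. Of the 50 strongest WT regions, 80% overlapped one of the 50 strongest of each other line, against 54.5% of the 200 strongest and 14.6% of the 2000 strongest. The regions ranked 2 to 5 in WT, which ranked 2 to 5 in each mutant too, included chr2:98506405-98507483 at the predicted gene Gm10800, chr9:35112802-35113175 and the repeat printed above. The region at chr1:24618456-24620069 (rank 8 in WT, 6 in Ezh2 KO, 9 in dKO and 7 in Y726D ESCs) matched the mitochondrial genome in 96.6% of its 31-base stretches. Of the 60 strongest regions, 29 in WT, 31 in Ezh2 KO, 32 in dKO and 31 in Y726D ESCs had a median copy number of at least 2. The head of each list therefore consisted in part of repeated sequence, mitochondrial sequence and exons of Ezh1 and Ezh2, and it was a small part of the 20000 regions.

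Among the 20000 strongest regions, Ezh2 KO ESCs overlapped WT most and dKO ESCs least. Of the WT regions, 28.2% (27.6% to 28.8%) overlapped one of Ezh2 KO, 22.6% (22.0% to 23.2%) one of Y726D and 17.9% (17.4% to 18.4%) one of dKO ESCs. Between mutants, 27.4% (26.8% to 28.1%) of the Ezh2 KO regions overlapped one of Y726D ESCs. The corresponding share was 21.1% (20.5% to 21.6%) for Ezh2 KO with dKO, and 18.1% (17.6% to 18.6%) for dKO with Y726D, the pair that shared the loss of Ezh1. No second library of a line was at hand, so it is not known how far 2 lists of the same line would overlap. At the WT minimum of -log10 p, where the lists differ in length, the shares of the mutant lists that overlapped WT were 21.2% for Ezh2 KO, 19.98% for dKO and 22.0% for Y726D ESCs. With regions ranked by -log10 p times width, these shares lay closer together, at 27.8%, 25.9% and 27.8%. Merged over the lines, the lists gave 61146 regions, of which 49246 (80.5%) were from 1 line, 7044 from 2, 3144 from 3 and 1712 (2.80%) from all 4. Regions with no listed region of any strength in another line numbered 926 (4.63%) in WT, 553 (2.77%) in Ezh2 KO, 1361 (6.81%) in dKO and 792 (3.96%) in Y726D ESCs.

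Merged regions from several lines lay at promoters and acetylated sites more often than those of 1 line. The median width of the merged intervals, which grows by construction with the number of regions joined, was 463 bp for regions of 1 line, 1499 bp for 2 lines, 2030.5 bp for 3 lines and 2235.5 bp for all 4. The share at a promoter, defined as within 500 bp of a start of a protein-coding gene, was 8.47% for 1 line and 29.3%, 39.9% and 38.8% for 2, 3 and 4 lines. The share on an H3K27ac peak was 15.8%, 45.2%, 55.9% and 51.9%. On WT SUZ12 peaks lay 1.97% of the regions of 1 line, and 5.03%, 5.92% and 5.32% of those of 2, 3 and 4 lines. A wide interval has more room to overlap a promoter, a peak or another region, and these shares were not corrected for width. The stretches examined for copy number were all single-copy in 77.8% of the merged regions of 1 line. The share was 74.5%, 72.7% and 59.1% for regions of 2, 3 and 4 lines. It is a different measure from the median copy number given above for the strongest regions.

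Widths of the strongest regions differed between the lines. WT regions had a median of 670 bp (656 to 682), Ezh2 KO regions of 860 bp (846 to 875), dKO regions of 554 bp (541 to 566) and Y726D regions of 720 bp (707 to 734), and none of these intervals overlapped. Regions under 300 bp made up 25.8%, 16.1%, 31.4% and 23.7% of the 4 lists, and regions over 1 kb 35.0%, 43.2%, 28.7% and 37.4%. At promoters the medians lay close together, at 1547.5, 1504, 1445.5 and 1532 bp in the same order of lines. Regions away from promoters, SUZ12 and H3K27ac had medians of 426, 585.5, 379 and 442 bp, so the spread between lines was larger there. When regions were ranked by -log10 p times width, the ratio of the median width to that of WT turned to 0.932 in Ezh2 KO, 1.01 in dKO and 0.997 in Y726D ESCs.

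The strongest regions lay at promoters and acetylated sites far more often than the genome does, and least often so in dKO ESCs. Promoter windows make up 1.17% of the genome, and they held 18.0% of the WT, 19.7% of the Ezh2 KO, 15.3% of the dKO and 19.95% of the Y726D regions. H3K27ac peaks, 2.26% of the genome, held 28.2%, 31.1%, 23.6% and 30.96%. WT SUZ12 peaks, 0.235% of the genome, held 3.38%, 3.33%, 2.67% and 3.43%. Regions on none of these were 66.0% of the list in WT, 62.4% in Ezh2 KO, 71.4% in dKO and 62.8% in Y726D ESCs. These shares were not corrected for the widths of the regions, which differed between the lines as given above.

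Promoters of transcribed genes carried strong regions more often than those of silent genes. Among 22359 protein-coding genes, 17.5% (17.0% to 18.0%) had one of the strongest regions at a promoter in WT, 19.2% (18.7% to 19.7%) in Ezh2 KO, 14.996% (14.5% to 15.5%) in dKO and 19.4% (18.9% to 19.96%) in Y726D ESCs. The difference from WT was 1.65 percentage points (1.09 to 2.22) in Ezh2 KO, -2.53 (-3.10 to -1.96) in dKO and 1.91 (1.32 to 2.49) in Y726D ESCs. The Ezh2 KO difference turned to -0.67 with 5000 regions per line and to -0.25 when regions were ranked by -log10 p times width, and it was 9.23 at the WT minimum of -log10 p. The dKO difference was below 0 under each alternative tried, from -4.78 to -0.99, and that of Y726D was above 0, from 0.74 to 2.76. Among promoters not bound by SUZ12 in WT, the WT share was 7.88% for genes with under 5 normalised WT counts, 20.1% from 5 to 100, 28.7% from 100 to 500 and 29.2% from 500 up. For the same classes it was 6.98%, 16.8%, 25.1% and 26.1% in dKO ESCs, and 9.14%, 23.5%, 31.4% and 33.6% in Y726D ESCs. Silent genes had the lowest share in each line, and the classes above 100 counts lay close together. These classes were not matched for CpG content. In WT 28.0% of CpG-rich promoters (defined below) and 7.77% of the others carried a strong region. Silent unbound genes with CpG-rich promoters, given below, came near the share of transcribed genes in WT.

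**Figure D2:**
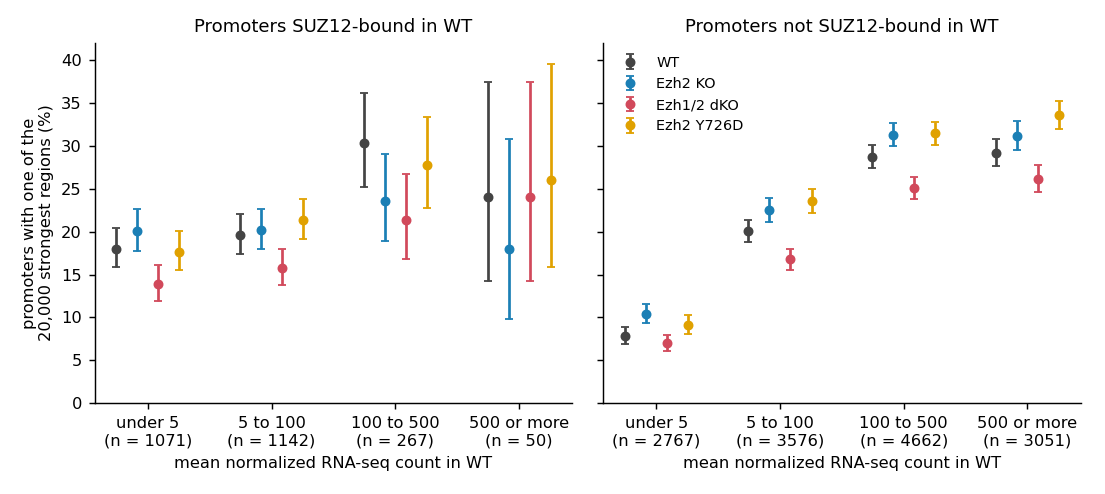
Share of promoters with one of the 20000 strongest ATAC-seq regions (y axis, %) by the mean normalised RNA-seq count of the gene in WT (x axis), for promoters bound (left) and not bound (right) by SUZ12 in WT. Points are the 4 lines and bars are 95% Wilson intervals. On the right the WT share runs from 7.88% to 29.2%, and on the left promoters with under 5 counts already reach 18.0%. The classes are not matched for CpG content.

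Silent promoters bound by SUZ12 in WT carried a strong region more often than other silent promoters. Bound CpG-rich promoters (CpG observed over expected of at least 0.6 and at least 50% GC) carried one less often than unbound CpG-rich ones. Of 1071 bound genes with under 5 WT counts, 18.0% carried a strong region in WT, 20.1% in Ezh2 KO, 13.9% in dKO and 17.6% in Y726D ESCs. Restricted to CpG-rich promoters of such silent genes, the share in WT was 17.6% (15.2% to 20.4%) for 828 bound genes and 26.2% (21.3% to 31.7%) for 271 unbound genes. Over all CpG-rich promoters it was 20.4% (18.8% to 22.1%) of 2290 bound and 30.005% (29.04% to 30.99%) of 8512 unbound genes in WT. The other lines showed the same order, with 20.04% against 32.8% in Ezh2 KO, 16.1% against 26.01% in dKO and 21.1% against 33.5% in Y726D ESCs. In Ezh2 KO ESCs the difference from WT was 2.77 percentage points (1.61 to 3.94) at CpG-rich unbound promoters and -0.35 (-2.24 to 1.55) at CpG-rich bound ones, and these intervals did not overlap. At the 512 bound promoters that were not CpG-rich, it was 4.69 (0.88 to 8.49). Over all 2802 bound promoters it was 0.57 (-1.13 to 2.27), so bound promoters did not move alike. At CpG-rich unbound and bound promoters the differences were -3.99 (-5.19 to -2.80) and -4.32 (-6.31 to -2.34) in dKO ESCs. In Y726D ESCs they were 3.47 (2.27 to 4.67) and 0.74 (-1.30 to 2.79). In both of these lines the intervals overlapped.

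At WT SUZ12 peaks themselves, dKO ESCs had fewer strong regions than WT, and the other mutants differed from WT by less than the counting error. Of 5404 peaks, 759 (14.05%) carried a strong region in WT, 739 (13.7%) in Ezh2 KO, 603 (11.2%) in dKO and 780 (14.4%) in Y726D ESCs. The differences were -0.37 percentage points (-1.45 to 0.71), -2.89 (-4.00 to -1.78) and 0.39 (-0.76 to 1.54), and that of Ezh2 KO was 7.68 at the WT minimum of -log10 p and -1.68 (-2.85 to -0.52) with regions of at least 300 bp. The Y726D difference was 1.999 (0.4997 to 3.497) with 50000 regions per line and 1.91 (0.33 to 3.48) when ranked by -log10 p times width. Ranked by fold enrichment, it turned to -0.56 (-1.61 to 0.50). The dKO difference ran from -4.89 to -0.70 over the alternatives. The dKO difference stood beside -2.53 at all promoters and -2.20 at H3K27ac peaks. It was -4.58 (-6.11 to -3.05) at the 3295 SUZ12 peaks on promoters, and -0.24 (-1.77 to 1.30) at the 2109 away from promoters.

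**Figure D3:**
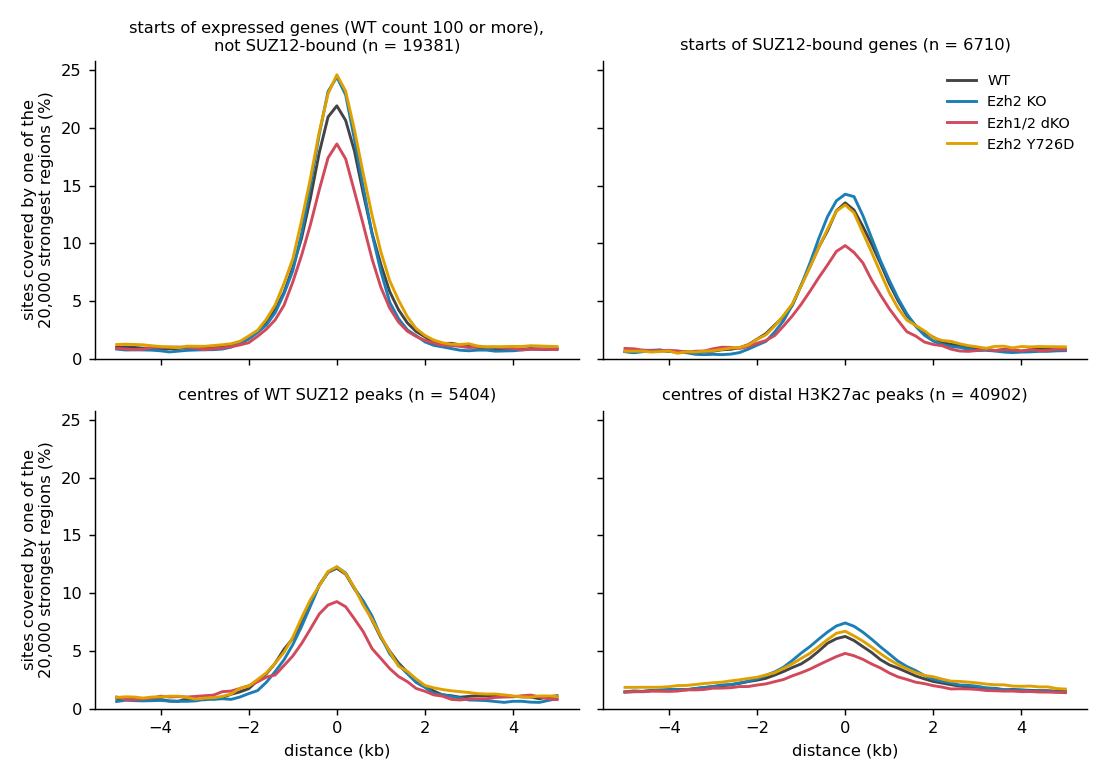
Share of sites covered by one of the 20000 strongest regions (y axis, %) against the distance from the site in kb (x axis), for starts of expressed genes not bound by SUZ12, starts of SUZ12-bound genes, WT SUZ12 peak centres and distal H3K27ac peak centres; each curve is 1 line. The curves peak at the site, and the dKO curve is the lowest there in all 4 panels, with 9.27% against 12.2% in WT at WT SUZ12 peak centres.

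The shares at these peaks differed by H3K27me3, while the WT share showed no steady trend with the strength of SUZ12. The 4287 peaks with WT H3K27me3 carried a strong region in 11.8% of cases in WT, 11.8% in Ezh2 KO, 10.01% in dKO and 13.1% in Y726D ESCs. The 1117 peaks without the mark were narrower (median 461 bp against 1017 bp) and yet carried one in 22.5%, 20.8%, 15.6% and 19.5%. In dKO ESCs the difference from WT was -1.84 (-3.05 to -0.64) with the mark and -6.89 (-9.61 to -4.18) without it, and these intervals did not overlap. In Y726D ESCs it was 1.26 (0.02 to 2.49) with the mark and -2.95 (-5.84 to -0.07) without it. At the SUZ12 peaks in the top 20% by strength (1080 peaks, median width 2084 bp) the shares were 12.96% in WT, 9.91% in Ezh2 KO, 10.9% in dKO and 14.5% in Y726D ESCs. The Ezh2 KO difference there was -3.06 (-5.46 to -0.65), whereas over the weakest 20% it was -0.93 (-3.30 to 1.45), and these intervals overlapped. The 1269 WT peaks that kept a SUZ12 peak in Ezh2 KO ESCs carried a strong region in 12.6% of cases in WT and 10.6% in Ezh2 KO, a difference of -2.05 (-4.19 to 0.09). The 2452 that kept one in Y726D ESCs carried one in 16.2% in WT and 17.0% in Y726D, a difference of 0.77 (-1.02 to 2.57).

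Sites of H3K27ac gave the most sites and the narrowest intervals. The H3K27ac lists of Ezh2 KO, dKO, Y726D and a further catalytic mutant, Ezh2 R685C, merged into 53418 sites, with no WT list used, and 15252 of them were on the Ezh2 R685C list alone. A strong ATAC-seq region lay on 12.8% of them in WT, 14.4% in Ezh2 KO, 10.6% in dKO and 14.1% in Y726D ESCs, and the differences from WT were 1.62 (1.29 to 1.95), -2.20 (-2.53 to -1.87) and 1.27 (0.92 to 1.61). The Ezh2 KO difference was 0.31 with 5000 regions per line and 7.77 at the WT minimum of -log10 p, and it turned to -0.20 (-0.63 to 0.23) when regions were ranked by -log10 p times width. Under that ranking the Y726D difference was 0.37 (-0.07 to 0.81), while that of dKO stayed below 0 and ran from -3.99 to -0.91 over the alternatives. At the 11781 sites on promoters the shares were 25.1%, 26.8%, 21.3% and 28.2%, and at the 41637 distal sites 9.33%, 10.9%, 7.57% and 10.1%. The share in WT was 7.65% where the site was on 1 of the 4 H3K27ac lists, 13.5% on 2, 17.4% on 3 and 22.9% on all 4, while the median width of the sites went from 436 to 2064 bp. The 5598 distal sites on all 4 lists carried a strong region in 19.1%, 23.2%, 16.3% and 22.3%.

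Sites acetylated in 1 mutant were compared in the line concerned. At the 10604 sites on the H3K27ac list of Y726D ESCs and on no other, the ATAC-seq share was 6.66% in WT and 8.57% in Y726D, a difference of 1.91 (1.28 to 2.55), beside 1.13 (0.55 to 1.71) for Ezh2 KO and -0.89 (-1.47 to -0.31) for dKO ESCs. At the 704 sites found in Ezh2 KO alone, the share was 8.10% in WT and 10.7% in Ezh2 KO, a difference of 2.56 (0.11 to 5.01), beside -0.14 (-2.59 to 2.30) for Y726D. At the 413 sites found in dKO alone it was 7.02% in WT and 6.30% in dKO ESCs, a difference of -0.73 (-3.91 to 2.46). WT SUZ12 peaks that carried H3K27ac in the dKO and the Y726D list but not in that of Ezh2 KO ESCs numbered 298. Their shares were 12.1% in WT, 15.1% in Ezh2 KO, 10.7% in dKO and 14.4% in Y726D, and each mutant's interval of the difference from WT included 0.

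**Figure D4:**
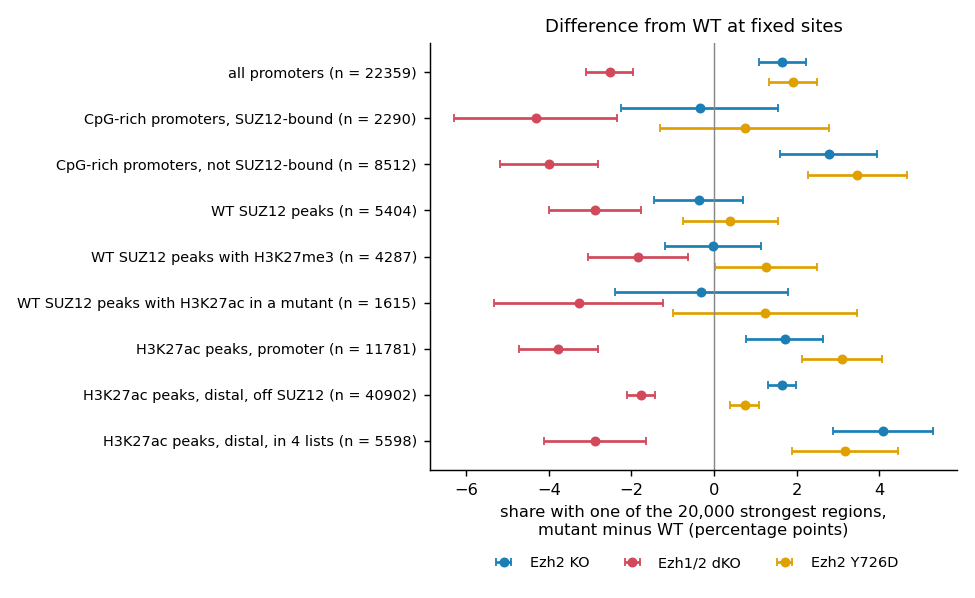
Difference from WT in the share of sites with one of the 20000 strongest ATAC-seq regions (x axis, percentage points) for 9 classes of site (y axis), in the 3 mutant lines; bars are 95% intervals from the discordant sites. The dKO points lie left of 0 in each class, and the Ezh2 KO and Y726D points lie right of it at all promoters (1.65 and 1.91) and at distal H3K27ac sites on all 4 lists (4.09 and 3.16).

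Promoters that changed between lines were called by rank: gained where a mutant had one of its 20000 strongest regions and WT had none among its 40000 strongest, and lost for the reverse. Ezh2 KO ESCs gained 1480 promoters (6.62%) and lost 1189 (5.32%). dKO ESCs gained 1290 (5.77%) and lost 1736 (7.76%). Y726D ESCs gained 1654 (7.40%) and lost 1291 (5.77%). Among the 2802 SUZ12-bound promoters, 6.96% were gained and 6.78% lost in Ezh2 KO, 6.75% and 9.92% in dKO, and 8.67% and 7.17% in Y726D ESCs, to be read beside the shares of all promoters just given. The median log2 RNA ratio to WT of the genes with a gained promoter was -0.02 in Ezh2 KO, -0.04 in dKO and -0.02 in Y726D ESCs, against -0.03, -0.03 and -0.02 over all genes with RNA.

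Of the 22359 promoters, 473 were lost in all 3 mutants and 174 were gained in all 3. All these calls used the same 1 WT library, so the mutants are not independent evidence of a loss or gain. The promoters lost in all 3 mutants with the strongest WT regions, picked by that rank, were those of Bpnt1, Zfp956 and Olig1. Bpnt1, a phosphatase of nucleotide metabolism, had a promoter region ranked 237 in WT, 165432 in Ezh2 KO, 647556 in dKO and 47307 in Y726D ESCs. Its RNA was 795 and 522 normalised counts in WT, 512 and 451 in Ezh2 KO, 429 and 496 in dKO, and 438 and 521 in Y726D ESCs, so that the highest mutant library lay just under the lower WT one. Zfp956, a zinc finger gene, ranked 241 in WT and 150326, 80363 and 150486 in the mutants, and its RNA lay between 86.7 and 144 counts with overlapping groups. Olig1, a transcription factor of the oligodendrocyte lineage bound by SUZ12, ranked 294 in WT and 204265, 61552 and 380677 in the mutants, and its RNA stayed at or under 4.44 counts in each library. Grik1, a kainate receptor subunit gene also bound by SUZ12, ranked 311 in WT, 45937 in Ezh2 KO, 287744 in dKO and 10249 in Y726D ESCs.

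None of the 5 gained promoters of highest rank in Ezh2 KO ESCs was bound by SUZ12 in WT, a count too small to be read. Of all 1480 promoters gained in this line 195 were bound, beside 2802 of all 22359 promoters. The shared promoter of Cept1, which makes phospholipids, and Dram2, a lysosomal membrane protein gene, ranked 43934 in WT, 485 in Ezh2 KO, 17498 in dKO and 1188 in Y726D ESCs. Rab30, a Golgi GTPase gene, ranked 132330 in WT, 744 in Ezh2 KO, 50185 in dKO and 612 in Y726D ESCs. Ereg, an EGF receptor ligand gene, ranked 563 in Ezh2 KO and 139037 in WT, with RNA of at most 2.67 counts in any library.

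In dKO ESCs the promoter of Xpa, a DNA damage recognition factor of nucleotide excision repair, ranked 292 against 276984 in WT, 32963 in Ezh2 KO and 132418 in Y726D. Xpa RNA was 18.7 and 36.6 counts in WT and 42.9 and 24.0 in dKO, with overlapping groups. Fam84a and the sialyltransferase gene St8sia4, both bound by SUZ12 in WT, ranked 414 and 473 in dKO against 158946 and 71957 in WT. In Y726D ESCs the promoter of Mrps16, a mitochondrial ribosomal protein gene, ranked 195 against 305841 in WT, 2196 in Ezh2 KO and 292426 in dKO. Ggct, a glutathione pathway enzyme gene, ranked 239 there against 95731 in WT, 3445 in Ezh2 KO and 578 in dKO ESCs, and its RNA was 143 and 129 counts in WT, 144 and 134 in Ezh2 KO, 192 and 196 in dKO, and 169 and 184 in Y726D ESCs.

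The share of derepressed Polycomb targets with a strong promoter region in the mutants lay near that of promoters in general. The share over all promoters was 17.5% in WT, 19.2% in Ezh2 KO, 14.996% in dKO and 19.4% in Y726D ESCs, and over all SUZ12-bound promoters it was 19.8%, 20.4%, 15.6% and 20.7%. Of 15 Polycomb loci that the study itself had singled out in these cells, Foxd4 and Hoxa7 had a strong region in WT, Pax9 in Ezh2 KO, and none in dKO or Y726D ESCs, while 12 had one in no line, and counts this small cannot be told from the shares of all promoters. Hoxa10, a homeobox gene, went from 2.67 and 0 counts in WT to 226 and 223 in dKO and 424 and 493 in Y726D ESCs, with its promoter region ranked 164698 in WT, 191068 in dKO and 369458 in Y726D. Hoxa7 went from 5.34 and 6.74 counts in WT to 65.1 and 85.2 in dKO and 106 and 232 in Y726D ESCs, and its region from rank 5212 to 110104 and 82502. The 121 SUZ12-bound genes whose RNA was at least 4-fold up in both dKO libraries had a strong region in 8.26% of cases in WT and 15.7% in dKO, a difference of 7.44 (0.13 to 14.7). Their share was also 16.5% in Ezh2 KO and 16.5% in Y726D ESCs. The median rank of their promoter regions moved the other way, from 71569 in WT to 90781 in dKO ESCs. The 59 such genes of Y726D ESCs had 13.6% in WT and 15.3% in Y726D, a difference of 1.69 (-10.3 to 13.7).

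Other gene lists gave small counts. Of 20 pluripotency genes, 3 promoters carried a strong region in WT (Klf2, Klf5 and Zfp42), 6 in Ezh2 KO, 1 in dKO (Tbx3) and 2 in Y726D ESCs (Klf2 and Lin28a), and none in all 4 lines. Utf1 and Fgf4, an ESC chromatin factor and a growth factor gene, ranked 1247 and 1272 in Ezh2 KO against 27943 and 130425 in WT. Of 14 lineage regulators, 4 had one in WT (T, Mixl1, Eomes and Krt8) and 2 in Ezh2 KO ESCs (Pax6 and Neurog1). In dKO ESCs 2 had one (Foxa2 and Elf5), and in Y726D ESCs 5 (Mixl1, Eomes, Hand1, Pax6 and Neurog1). Mixl1 and Eomes, regulators of the primitive streak, ranked 10855 and 9576 in WT and 6868 and 10627 in Y726D, against 241462 and 150264 in dKO ESCs. Of 15 genes for Polycomb subunits, 3 had one in WT, 4 in Ezh2 KO, 2 in dKO and 3 in Y726D ESCs, and Rbbp4, a histone-binding subunit of PRC2, was among them in the 3 mutants (rank 12102, 8114 and 19349, and 21358 in WT). Of 4 genes for H3K27 acetyltransferases and demethylases, the acetyltransferase genes Crebbp (rank 1955) and Ep300 (rank 10755) had one in WT, and the demethylase gene Kdm6a in dKO (rank 13573) and Y726D ESCs (rank 13297). Of 8 housekeeping genes, Gapdh and Ppia had one in WT and none had one in a mutant. The shares over all promoters, 17.5%, 19.2%, 14.996% and 19.4%, give counts of this order for lists of this size.

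CTCF core matches were less frequent in the distal regions of dKO ESCs. The match, searched on both strands in 300 bp about the centre of each region, was in 1.64% (1.46% to 1.85%) of the distal strong regions of WT, 1.87% (1.67% to 2.09%) of Ezh2 KO, 0.921% (0.788% to 1.08%) of dKO and 1.37% (1.21% to 1.57%) of Y726D ESCs. In all listed distal WT regions it was in 0.298%. The octamer ATGCAAAT was in 2.09%, 2.36%, 1.85% and 2.07% of the distal strong regions, and in 1.89% of all listed distal WT regions. The SP/KLF sequence CCCCGCCC was in 18.1%, 20.5%, 19.9% and 19.02% of the strong regions at promoters, against 20.9% of all promoters and 1.24% of all listed WT regions. A match is a description of the letters in the window, not of binding.

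Regions were not spread over the chromosomes alike in the 4 lines. Chromosome 12 held 4.49% of the listed regions in WT, 4.70% in Ezh2 KO, 4.56% in dKO and 3.36% in Y726D ESCs, and 919, 1028, 898 and 517 of the 20000 strongest. The ratio of its share to that of WT was 0.748 in Y726D, and it lay between 0.951 and 1.09 for its other autosomes. The median log2 RNA ratio of the 277 expressed genes of chromosome 12 to WT was -0.32 and -0.33 in the 2 Y726D libraries. Chromosome X held 1.47% of the regions in WT and 1.94% in Ezh2 KO ESCs, a ratio of 1.32, with an RNA ratio of -0.01 and -0.12 on the log2 scale over 264 genes. The share of chromosome X was low in each list for its 6.28% of the genome. The first 1 Mb of chromosome Y held 66 regions in WT, 78 in Ezh2 KO, 54 in dKO and 24 in Y726D ESCs, and the rest of it 63, 78, 77 and 87. RNA of Ddx3y, a helicase gene in the first 1 Mb of chromosome Y, was 767 and 873 counts in WT, 830 and 808 in Ezh2 KO, 704 and 725 in dKO, and 0 and 1.12 in Y726D ESCs. The results above were recomputed without chromosomes 12, X and Y, and no difference from WT at promoters, SUZ12 peaks or H3K27ac peaks changed direction.

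**Figure D5:**
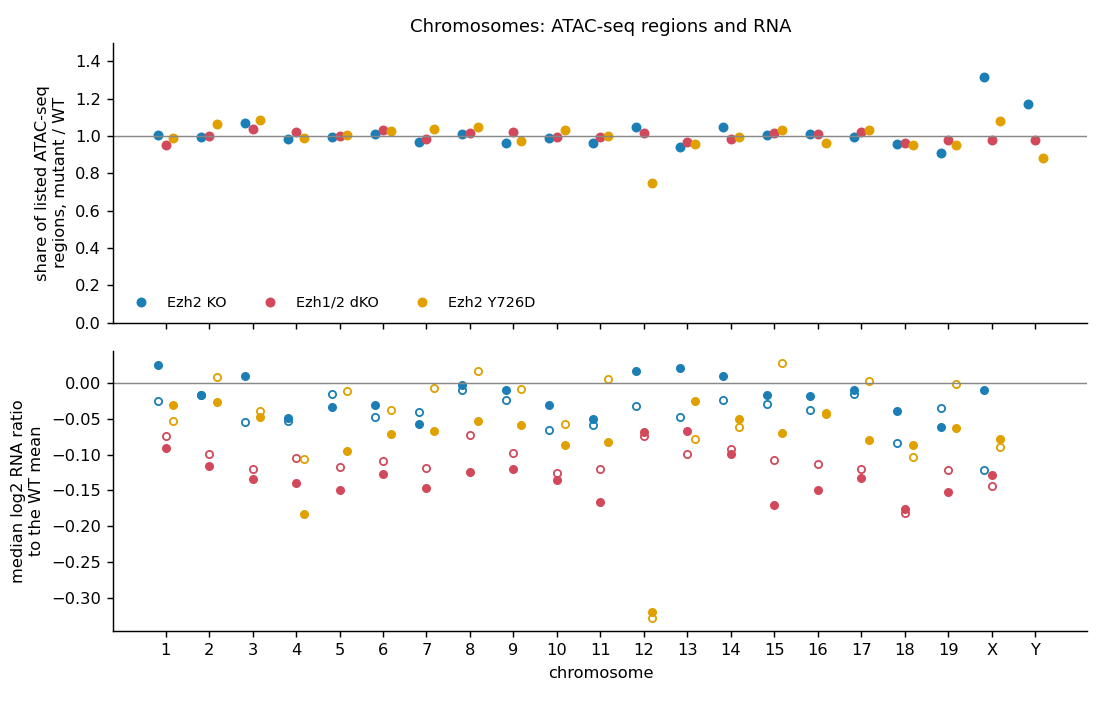
Top: share of listed ATAC-seq regions on each chromosome (x axis) in a mutant line over that in WT (y axis, linear from 0). Bottom: median log2 RNA ratio to the WT mean (y axis) of expressed genes on the same chromosome, with filled and open points for the 2 libraries of a line. Y726D stands at 0.748 and at -0.32 and -0.33 on chromosome 12, and Ezh2 KO at 1.32 on chromosome X in the top panel.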

How the data were processed

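ATAC-seq, ChIP-seq and RNA-seq were performed by the authors in the ESC lines. For ATAC-seq, nuclei were tagmented with Tn5, paired reads were aligned to mm9 with Bowtie, duplicates were removed with Picard, and regions were called with MACS2 in broad mode. The exact settings of that call, and the depth of each library, are not given in the sources used here. The deposited ATAC-seq lists give for each region a fold enrichment (a ratio over background) and a -log10 p, both computed by the authors with MACS2, and every region had a p of at most 0.1. The deposited ChIP-seq lists give a -log10 p for each peak, with p at most 1e-10. The deposited RNA values are counts divided by size factors (signal) of 2 libraries per line. The authors' tables of fold changes and p-values per gene were not used.

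Regions were sorted by -log10 p, mitochondrial regions (3 per list) were left out, and the 20000 strongest of each line were intersected (at least 1 bp) with promoters (500 bp each side of 46015 starts of 22359 protein-coding genes, GENCODE mouse release 1, mm9), SUZ12 peaks and merged H3K27ac peaks. RNA was matched for 16586 of these genes, 15822 by symbol and 764 by synonym, and a log2 pseudocount of 1 was used. Copy number is the number of times a 31-base stretch occurs in mm9. With 1 library per line no test was made. Shares carry 95% Wilson intervals, medians carry intervals from order statistics, and all intervals cover counting error only. Scripts used Python 3.11.15, numpy 2.4.6 and pandas 2.3.3, and were tested on 2000 simulated sites, where 7 of 7 checks passed. Alternatives were another list length (5000 or 50000), ranking by fold enrichment, a common minimum of -log10 p, a stricter overlap, window, peak threshold or call rule, and leaving out chromosomes 12, X and Y.

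Named genes were Ezh1 and Ezh2, fixed lists, and the first 5 promoters by rank among those gained or lost in each line, of which some are described. The regions, sites and gene lists were chosen with earlier results of these data known.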

Additional observations from a re-analysis of the deposited data

How the results depend on the processing

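Values below are in the order Ezh2 KO, dKO and Y726D unless a line is named. The main values were overlaps with WT of 28.2%, 17.9% and 22.6%, width ratios of 1.28, 0.827 and 1.07, and the differences in the report. With 5000 regions per line the overlap was 31.7%, 20.9% and 25.1%, the width ratio 1.24, 0.735 and 1.02, the promoter difference -0.67, -0.99 and 0.74 points, the SUZ12 difference -0.70 in dKO, and the H3K27ac difference 0.31, -0.91 and 0.45. Gained promoters were then 543, 626 and 833, and lost ones 654, 828 and 693. With 50000 regions the overlap was 26.9%, 19.4% and 23.3%, the width ratio 1.16 in Ezh2 KO and 0.916 in dKO, the promoter difference 2.26, -3.50 and 2.76, the SUZ12 difference 1.999 in Y726D, and the H3K27ac difference -3.72 in dKO and 1.75 in Y726D.

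Ranked by fold enrichment, the overlap was 25.0%, 15.1% and 19.1%, the width ratio 1.34 in Ezh2 KO, and the H3K27ac difference 2.09 in Ezh2 KO and -1.59 in dKO. With the WT minimum of -log10 p in each line, so that lengths differed by construction, the overlap was 21.2%, 19.98% and 22.0%, the width ratio 1.2 in Ezh2 KO, the promoter difference 9.23, -4.78 and 2.63, the SUZ12 difference 7.68 in Ezh2 KO and -4.89 in dKO, and the H3K27ac difference 7.77, -3.99 and 1.84. Gained promoters of Ezh2 KO then numbered 2387. With at least 0.5 of the shorter interval required, the overlap was 27.4%, 17.4% and 21.9%, and the H3K27ac difference of Ezh2 KO 1.13. With H3K27ac peaks of p at most 1e-20 the H3K27ac difference was 2.60, -3.00 and 2.19.

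A ranking by -log10 p times width and a minimum width of 300 bp were chosen after seeing the data. Under the first, the overlap was 25.9% in dKO and 27.8% in Y726D, and the width ratio 0.932, 1.01 and 0.997. The promoter difference was -0.25 in Ezh2 KO and 1.02 in Y726D, the SUZ12 difference -1.70 in dKO and 1.91 in Y726D, and the H3K27ac difference -0.20, -1.63 and 0.37. Lost promoters of Ezh2 KO then numbered 1860. With at least 300 bp, the overlap was 32.3%, 22.2% and 27.4%, the width ratio 1.09, 0.920 and 1.04, and in Ezh2 KO the promoter difference 0.17, the SUZ12 difference -1.68 and the H3K27ac difference 0.60. The causes of these changes were not tested.

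In all, 72 recomputed values moved by more than the counting interval or 1.5 times, and 108 were counted as unchanged. Another 6, all with a main interval that excluded no difference, changed direction. SUZ12 differences with a main interval that included 0 also changed sign and are not among these 6. That of Ezh2 KO, -0.37 in the main setting, was 0.67 with 50000 regions and 7.68 at the WT minimum. That of Y726D, 0.39 in the main setting, was -0.56 when ranked by fold enrichment. The dKO differences at promoters, SUZ12 peaks and H3K27ac peaks were below 0 in every setting run for them. No paired analysis was possible because each line had 1 ATAC-seq library and no result comes from a test. The unknown depth limits comparisons of strength between lines.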

Other observations

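Promoters of 749 genes (3.35%) carried one of the 20000 strongest regions in all 4 lines, and 13773 (61.6%) in none. Of those in all 4 lines, 76.4% were CpG-rich, 73.8% carried H3K27ac in a mutant line and 10.01% were bound by SUZ12 in WT, against 32.0%, 30.3% and 11.3% of those in no line. The genes in all 4 lines had a median of 186 normalised counts in WT, against 26.5 for those in no line. Merged regions of all 4 lines that lay away from promoters numbered 1048, of which 39.0% lay on an H3K27ac peak, 2.29% on a WT SUZ12 peak and 59.5% on neither.

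On chromosome Y, RNA of Eif2s3y, a translation initiation factor gene, was 747 and 775 normalised counts in WT, 701 and 704 in Ezh2 KO, 578 and 683 in dKO, and 1.78 and 3.36 in Y726D ESCs. Within 5 kb of Uty, a histone demethylase family gene, 25 regions were listed in WT, 22 in Ezh2 KO, 15 in dKO and 5 in Y726D ESCs, and its RNA was 0 in both Y726D libraries. Region counts did not follow RNA at every gene. Near Eif2s3y they were 5, 3, 0 and 0 in the same order of lines, although dKO ESCs expressed it. Near Usp9y they were 8, 22, 7 and 7.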
